A study of Drosophila melanogaster with 2 samples.

Results

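The 10 genes described here encode transcription factors that set enterocyte identity and the regional pattern of the fly gut, and were followed in posterior midguts after Gli-RNAi: nub, pdm2, GATAe, srp, cad, lab, Ptx1, hth, dve and tsh. They were chosen by symbol from the deposited transcript table, and for each locus the transcript with the highest mean read count stood for the gene. All 10 of 10 listed genes were found, among 13822 loci in the table, and all 10 passed the filter on low counts that left 8236 genes for testing. The table held 29 transcript rows for them, out of 24047 in all.

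The guts came from 9-day-old female Drosophila melanogaster raised at 25 degrees C that carried 5966GS-GAL4 and UAS-Gli-RNAi. In the induced condition the steroid RU486 switched on the RNAi against Gli (gliotactin, a transmembrane protein of tricellular junctions), which the labels place in enterocytes, and in the control condition flies of the same strain received ethanol. The genotype field of the labels says wild type for both. Midguts were pooled at RNA extraction, 75 were dissected per condition, and 3 poly(A) libraries were sequenced per condition. Drug and knockdown go together in this design and cannot be told apart.

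The labels call the libraries biological replicates. Since midguts were pooled, the spread behind the p-values may be partly technical and may miss variation between animals. The p-values may then be too small. Library totals ran from 8111031 to 14303722 reads in the induced condition and from 6821908 to 10914491 in the controls, counted with 1 transcript per locus. Gli itself fell from 1962 ± 110 to 899 ± 19.1 normalised counts (SD, n = 3). Enterocyte markers were abundant (summed count of 10 genes between 122301 and 149745 in any library), and copper cell markers were present at summed counts of 992 to 1814. Beyond counting error the coefficient of variation was 0.0277 in the induced libraries and 0.0789 in the controls. Leaving out control replicate 3 gave more calls over all genes, 2466 higher and 2492 lower against 2272 and 2204.

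In the adult midgut stem cells renew absorptive enterocytes, and each stretch of the tube keeps its own set of transcription factors, which fixes what its cells secrete and absorb. The POU homeodomain protein encoded by nub, also called Pdm1, is the usual nuclear marker of enterocytes, and pdm2 is its neighbouring paralogue. GATA factors act across the endoderm, cad is the caudal-type homeobox gene of the posterior gut, and lab is the Hox gene that specifies the acid-secreting copper cells of the middle midgut.

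Gli-RNAi split these genes. The POU genes nub and pdm2 rose, by 1.55-fold and 4.39-fold, and the copper cell Hox gene lab fell by 1.89-fold. Ptx1, hth and dve were lower by 1.14-fold to 1.21-fold, and GATAe, srp, cad and tsh did not pass the test. In all 2 of the 10 rose and 4 fell at an adjusted p under 0.05 (edgeR quasi-likelihood test, Benjamini-Hochberg over all genes tested), against 27.6% of all tested genes that rose and 26.8% that fell. A call for 6 of 10 genes is thus close to the 54.3% called over all genes. The libraries did not overlap for the same 6, with 2 higher and 4 lower after induction, where 31.6% of all genes were higher without overlap, 28.8% lower and 60.4% either. The median log2 fold change was -0.12 over the 10 genes and 0.03 over all genes tested.

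**Figure D1:**
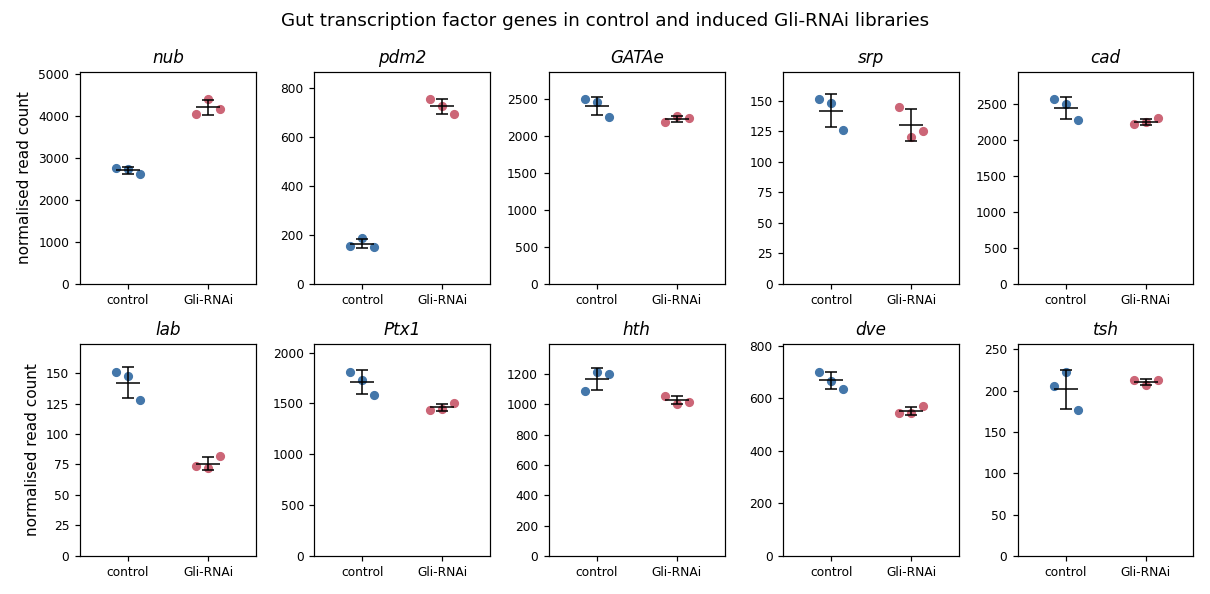
Normalised read count of each gene (vertical axes, from 0) in the 3 control (blue) and the 3 induced Gli-RNAi (red) libraries, with the mean and SD in black. The libraries of the conditions do not overlap for nub, pdm2, lab, Ptx1, hth and dve, and they overlap for GATAe, srp, cad and tsh.

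The normalised count of nub (reads divided by a TMM-based library factor, set to average 1) was 2756, 2730 and 2598 in the controls and 4047, 4383 and 4149 after induction. Every induced library lay above every control. The mean went from 2695 ± 84.7 to 4193 ± 172 (SD, n = 3), a log2 fold change of 0.64 ± 0.051 (SE, adjusted p = 1.1e-07). Among all tested genes this change ranks at the 89.2 percentile, counted from the most lowered gene upward.

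Its paralogue pdm2 is expressed with nub in many embryonic tissues and shares its POU domain. It had 154, 184 and 150 normalised counts in the controls and 754, 725 and 696 after induction, again with no overlap. The mean rose from 163 ± 19.0 to 725 ± 28.9, which is 2.14 ± 0.087 on the log2 scale (adjusted p = 9.0e-11). This was the only one of the 10 genes that changed at least 2-fold, as 5.55% of all tested genes rose by that much, and 104 genes past the threshold rose more.

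The POU genes also moved relative to each other. On the authors' signal, which divides reads by mapped reads and by transcript length and so allows genes to be compared, pdm2 stood at 5.02%, 6.08% and 5.18% of nub in the controls. In the induced libraries it stood at 16.7%, 14.9% and 15.1%, so the ranges do not overlap. The difference gave p = 0.1 in a two-sided exact permutation test over the libraries, the smallest that 3 against 3 allows.

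The genes lie next to each other on chromosome 2L, in the same orientation. In the coordinates of the deposited table, whose build is not named, the pair spans 12587871 to 12686313, and 29685 bases separate the end of nub from the start of pdm2. Other loci within this span, named after their values were seen, were close to silent. Ref2, on the opposite strand inside the span of nub, had 7 induced and 2 control reads, and Nepl7, on the opposite strand inside pdm2, had 31 and 3. The strand setting of the counting is not given in the sources used here, so reads of these partners cannot be told apart from those of the POU genes. Beyond pdm2 the chaperonin subunit gene CCT4 rose by 0.43 ± 0.062 on the log2 scale, from 1299 ± 93.9 to 1746 ± 55.2. Before nub the non-coding locus CR42746 had 3 induced reads and 1 control read.

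The other members of the POU family were low. Of pdm3, vvl and acj6, 2 were tested and 0 of them passed, in either direction, against 54.3% of all tested genes. The highest, vvl, had 40.6 ± 5.44 counts in the controls and 38.3 ± 8.94 after induction (log2 fold change -0.07, adjusted p = 0.80), and pdm3 had 11.5 ± 1.83 and 10.2 ± 5.31.

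Markers of progenitor cells moved with nub and pdm2. All 8 of 8 listed progenitor markers rose, against 27.6% of all tested genes. Their summed count lay between 4449 and 4624 in the induced libraries against 1554 to 1746 in the controls. The summed count of the 10 enterocyte markers was 122301 to 124547 in the induced libraries and 146490 to 149745 in the controls. Of these markers 2 were higher (mesh and Ssk, genes of the smooth septate junction) and 5 lower, or 4 higher and 4 lower with library totals. Over all tested genes 27.6% were higher and 26.8% lower, or 45.4% and 18.4% with library totals. Myo31DF, an enterocyte myosin gene often used as a driver, was at 3978 ± 259 and 4153 ± 46.1 (adjusted p = 0.36). The part of either cell type in the rise of nub and pdm2 was not tested. In whole tissue a change in the number of cells of a type and a change in RNA per cell cannot be told apart.

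GATAe encodes the GATA zinc-finger factor that maintains endodermal gene expression, and srp (serpent) encodes the GATA factor that comes before it in the embryonic endoderm and that also acts in fat body and haemocytes. Neither passed the test. GATAe had 2489, 2450 and 2257 normalised counts in the controls and 2183, 2267 and 2237 after induction. Control replicate 3 lay inside the induced range, so the conditions overlap. The log2 fold change was -0.11 with a 95% interval of -0.22 to 0.01 (adjusted p = 0.11). Without control replicate 3 it was -0.15 and passed (adjusted p = 0.0014), whereas with library totals as scaling it was 0.082.

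On the per-length signal srp stood at 4.81% ± 0.219 of GATAe in the controls and 4.76% ± 0.573 after induction. Normalised counts were 151, 148 and 126 in the controls and 145, 120 and 125 after induction, which overlap. The log2 fold change was -0.12, with an interval from -0.36 to 0.13 (adjusted p = 0.41). This interval includes decreases of the size seen for Ptx1 and dve. With the longest transcript in place of the one with most reads the value turned to 0.15, and with reads summed over transcripts to 0.049. Fat body markers, from a tissue where srp acts, fell in 3 and rose in 1 of 4 tested cases, against 26.8% and 27.6% of all tested genes. Their summed counts were 1228 to 1273 in the induced libraries and 3339 to 3578 in the controls. Haemocyte markers summed to 40.5 to 58.3 in the induced libraries and 35.0 to 39.0 in the controls, with eater and He at 0 reads. Of the haemocyte markers 2 were tested, of which 1 rose and 0 fell. Their part in the level of srp was not tested.

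These GATA genes are also neighbours, on chromosome 3R, in the same orientation and 5019 bases apart (11811923 to 11844855 in the table's coordinates). Between them, on the opposite strand, lies the non-coding gene CR42839. It rose from 103 ± 11.7 to 140 ± 3.96 (log2 fold change 0.42 ± 0.111, adjusted p = 0.0053), while the genes on its sides did not pass. Hel89B, the locus before srp, rose by 0.25 ± 0.094 (adjusted p = 0.039). CR42839 and Hel89B were named after their values were seen.

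Of the other GATA factors and their cofactor, 2 of 4 were tested and 0 rose or fell, against 54.3% of all tested genes. GATAd was at 199 ± 24.2 and 237 ± 14.0 (log2 fold change 0.23, adjusted p = 0.058), and the GATA cofactor gene ush at 76.5 ± 6.87 and 91.3 ± 5.12 (0.24, adjusted p = 0.12). With library totals as scaling both passed and were higher, as were 45.4% of all tested genes. The remaining GATA genes grn and pnr had 3 and 2 induced reads and 1 control read each.

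Digestive enzyme genes, whose expression in the midgut is known to need GATA factors, mostly fell. Of 29 tested, 21 fell and 6 rose (19 and 8 with library totals), with a median log2 fold change of -0.99. Over all tested genes 26.8% fell and 27.6% rose (18.4% and 45.4% with library totals). The protease gene Jon44E fell from 2892 ± 90.7 to 144 ± 13.9 and the lipase gene mag from 69814 ± 1520 to 8292 ± 135. Jon65Aiv, the most abundant that did not pass, was at 53381 ± 2505 and 50918 ± 948. These proteases have close relatives with which they may share reads.

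The homeobox gene cad restrains antimicrobial peptide genes in the healthy fly gut, and nub is known to do likewise. It was the highest of the 10 on the per-length signal in the controls. Its normalised counts were 2563, 2498 and 2275 in the controls and 2217, 2246 and 2299 after induction, where control replicate 3 again falls within the induced range. The log2 fold change was -0.12, with an interval from -0.24 to 0.00 (adjusted p = 0.086). It passed at -0.17 without control replicate 3 (adjusted p = 3.5e-04) and at -0.14 with DESeq2 size factors (adjusted p = 0.046), and it was 0.070 with library totals.

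The antimicrobial peptide genes held almost no reads. None of the 13 listed genes passed the filter. Together they had 49 reads after induction and 37 without, and 2 had none in any library. The largest number belonged to AttD, which had 20 induced and 11 control reads. Their summed normalised counts were 13.3 to 14.6 in the induced libraries and 12.6 to 16.9 in the controls, which overlap. At this depth a small difference in this group would not be seen. Of the markers of hindgut and Malpighian tubule, tissues next to the posterior midgut, 6 of 7 tested fell, against 26.8% of all tested genes. These markers had summed counts of 6293 to 6520 in the controls and 4569 to 4644 in the induced libraries. Their part in the level of cad was not tested.

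Of the 10 genes lab was the one that fell furthest. Its normalised counts were 151, 148 and 128 in the controls and 74.0, 71.8 and 81.6 after induction. No induced library reached a control, and the mean fell from 142 ± 12.7 to 75.8 ± 5.19, by 0.92 ± 0.116 on the log2 scale (adjusted p = 1.2e-05). A change of this size or more, in either direction and past the threshold, was seen in 14.4% of all tested genes. In the table's coordinates it occupies bases 2487140 to 2504312 of chromosome 3R, on the minus strand.

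Markers of copper cells moved with lab. All 3 of 3 fell, and their summed count was 992 to 1067 in the induced libraries against 1703 to 1814 in the controls. They are the carbonic anhydrase gene CAH7, the proton pump subunit gene Vha100-4 and the homeobox gene ct. In the wider list of copper and iron cell region genes 8 of 12 fell and 3 rose (4 rose with library totals), with a median of -0.90. Over all tested genes 26.8% fell and 27.6% rose (45.4% rose with library totals). Zip42C.1, a zinc transporter gene, fell from 514 ± 23.6 to 90.1 ± 3.27, and the metallothionein gene MtnA, named after its value was seen, from 31333 ± 2196 to 8950 ± 419. The mucin gene Mur29B rose from 3579 ± 136 to 18889 ± 395, while the ferritin gene Fer1HCH did not pass (18664 ± 719 and 18120 ± 137). The middle midgut lies in front of the dissected segment, and whether the amount of it in the dissected tissue differed was not tested.

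The homeobox gene dve (defective proventriculus) is needed for the proventriculus and for the middle midgut. Its counts were 701, 668 and 636 in the controls and 544, 544 and 570 after induction, with no overlap. The mean fell from 668 ± 32.7 to 552 ± 15.02, by 0.28 ± 0.066 on the log2 scale (adjusted p = 0.0027). Ptx1, a homeobox gene of the Pitx family with regional expression in the midgut, had 1813, 1732 and 1587 counts in the controls and 1434, 1449 and 1501 after induction. It fell by 0.23 ± 0.060 (adjusted p = 0.0050).

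The TALE homeobox gene hth (homothorax) encodes a partner of Hox proteins that brings Exd into the nucleus. It had 1086, 1216 and 1202 counts in the controls and 1058, 1006 and 1018 after induction, so that the ranges stay apart by a narrow margin. It fell by 0.19 ± 0.062 (adjusted p = 0.021). The call was lost without induced replicate 2 (-0.17, adjusted p = 0.086), without induced replicate 3 (-0.18, adjusted p = 0.082) and without control replicate 2 (-0.18, adjusted p = 0.051).

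The small decreases of dve, Ptx1 and hth were weaker under another scaling. With library totals in place of TMM the median of all genes moved up by 0.19 on the log2 scale, and the log2 fold changes were -0.086, -0.039 and 0.0049, none past the threshold. In the fit over transcript rows described further on, library totals left the same dve row past it, at -0.17 (adjusted p = 0.044), but not those of Ptx1 and hth. By locus, under that scaling, 1 of the 10 genes fell, lab at -0.73, against 18.4% of all genes. The same 2 rose, nub at 0.83 and pdm2 at 2.32, against 45.4%, and 63.7% of all genes were called in either direction. The authors' deposited table, on its own scaling, gave log2 values of -0.29, -0.25 and -0.21 for the same transcripts of dve, Ptx1 and hth, with adjusted p-values of 0.00121, 0.00132 and 0.0209. Adjusted p-values were under 0.05 for 44.1% of the transcript rows that had one there.

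**Figure D2:**
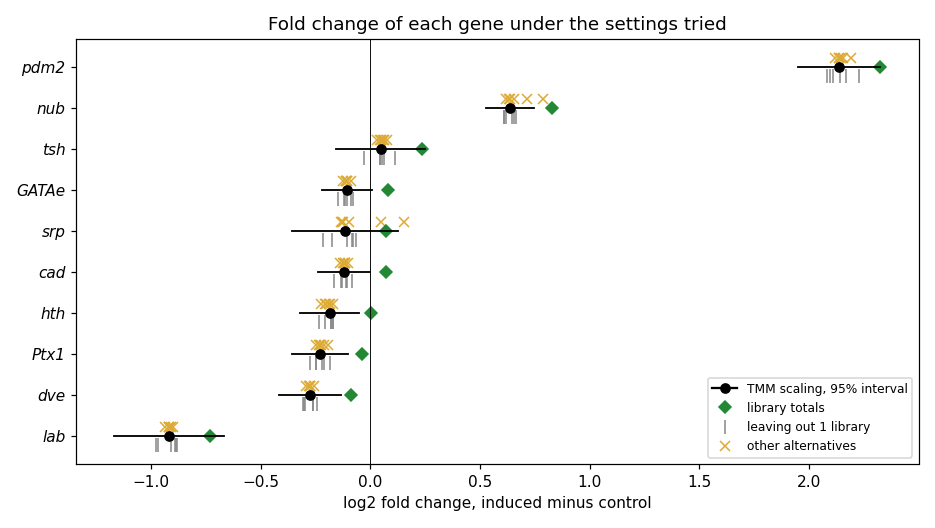
Log2 fold change (horizontal axis, induced minus control) of each gene with TMM scaling (black, with the 95% interval), with library totals (green), without each library in turn (grey) and in the other alternatives (yellow). Values for pdm2, nub, lab, Ptx1 and dve stay on 1 side of 0 in all of them, while those of tsh, GATAe, srp, cad and hth cross it in some.

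The zinc-finger gene tsh (teashirt) acts with Hox genes in the trunk and in the midgut mesoderm of the embryo. It had 206, 223 and 176 normalised counts in the controls and 212, 206 and 213 after induction. The induced values lie within the control range. The log2 fold change was 0.05, with an interval from -0.16 to 0.25 (adjusted p = 0.70). Its paralogue tio (tiptop) rose from 51.1 ± 6.84 to 82.5 ± 14.0 (log2 fold change 0.63 ± 0.166, adjusted p = 0.0054), the only call among the 2 tested genes of a list of 5 paralogues and cofactors of tsh and Ptx1, where so was at 10.3 ± 4.29 and 14.0 ± 3.59 (adjusted p = 0.34). Visceral muscle markers, which could share a source with tsh or hth, rose in 3 and fell in 1 of 13 tested cases (7 and 0 with library totals, 3 and 3 without control replicate 3). Over all tested genes 27.6% rose and 26.8% fell (45.4% and 18.4% with library totals). These markers had summed counts of 17988 to 18486 in the induced libraries and 16966 to 17691 in the controls. Their part in the levels of tsh and hth was not tested. Among the remaining marker lists, 2 of 3 foregut, cardia and anterior midgut genes rose, 5 of 9 enteroendocrine genes fell and 1 rose (3 rose with library totals), 2 of 3 tracheal genes rose (3 with library totals) and 0 of 3 neuronal genes were called. No germline gene passed the filter. The 4 listed germline markers summed to 5.06 to 7.85 counts in the induced libraries and 19.6 to 21.5 in the controls.

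Of 13 other Hox and TALE homeobox genes 7 were tested, of which 1 rose and 0 fell, against 27.6% and 26.8% of all tested genes. With library totals 3 rose, where 45.4% of all tested genes did. The gene that rose with TMM scaling was the TALE gene achi, at 21.3 ± 4.89 and 37.9 ± 4.16 (log2 fold change 0.82 ± 0.217, adjusted p = 0.0055). The cofactor gene exd, whose product works with that of hth, was at 958 ± 29.2 and 899 ± 20.6 (-0.09, adjusted p = 0.20). Ubx and mirr did not pass at larger log2 fold changes of 0.50 and 0.52 (adjusted p = 0.12 and 0.079), nor did Antp, abd-A and Abd-B at -0.08, -0.06 and 0.14. Below the filter, and named after their values were seen, the Iroquois genes ara and caup appeared almost only in the induced libraries. ara had 20 induced and 0 control reads, at least 4.52-fold higher against a floor of 3 reads over the condition. caup had 37 and 1, a ratio of scaled totals of 25.1 (exact 95% counting interval 4.23 to 1017).

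Other gut segment transcription factors moved in both directions. Of 24 listed, 14 were tested. Of these 3 rose and 5 fell, against 27.6% and 26.8% of all tested genes. Leaving out control replicate 3 made it 7 that fell. The hindgut gene byn (brachyenteron) fell from 35.0 ± 6.06 to 11.1 ± 1.13, and the homeobox gene otp, a hindgut gene of the embryo, had 40 control and 2 induced reads, a ratio of 29.5 (95% counting interval 7.65 to 252). The others that fell were bowl, ct and bab2, at -1.03, -1.03 and -0.54, and those that rose were drm, fkh and Sox100B, at 0.38, 0.67 and 1.65. vnd, the most abundant that did not pass, was at 1268 ± 159 and 1165 ± 52.1.

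Among 8 tested regulators of enterocyte differentiation 4 rose and 1 fell (2 without control replicate 3), against 27.6% and 26.8% of all tested genes. Sox21a, which drives progenitors towards enterocytes, rose from 184 ± 5.49 to 1199 ± 32.9 and the progenitor gene esg from 701 ± 49.6 to 1338 ± 69.8. The others that rose were klu and zfh2, at 0.59 and 0.51. The gene that fell was the nuclear receptor gene Hnf4, at -0.41, from 1363 ± 20.5 to 1028 ± 23.4. peb (hindsight) did not pass, at 5099 ± 888 and 5219 ± 164. Sox21a, esg, klu and zfh2 are also in the progenitor marker list, as is Sox100B, and byn and bowl are in the hindgut marker list. The enterocyte markers Mal-A1, betaTry, alphaTry, Jon65Ai and Jon99Ci are also in the digestive enzyme list, so these lists are not independent. The copper cell markers are also in the copper and iron list. ct is a listed gut segment gene as well, and drm and odd are in the foregut marker list.

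**Figure D3:**
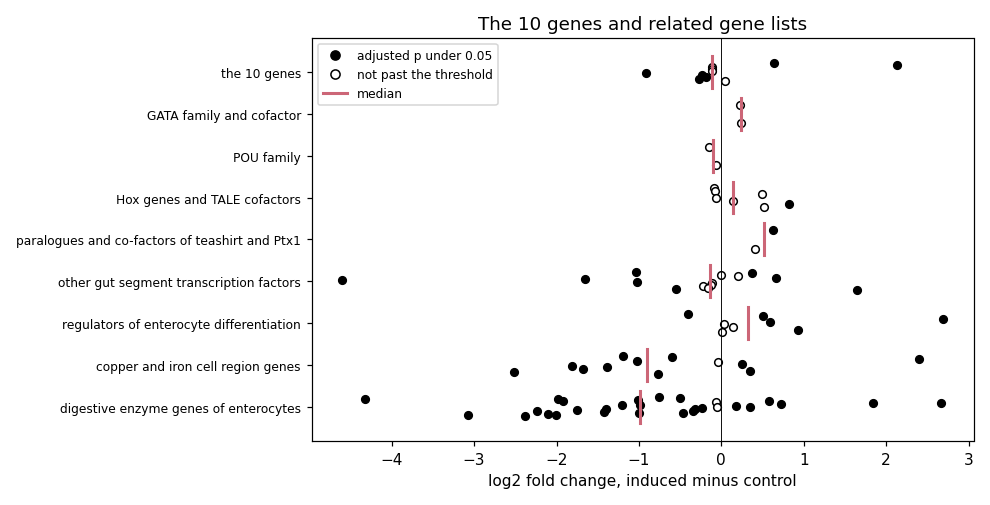
Log2 fold change (horizontal axis, induced minus control) of the tested members of each list, 1 point per gene, filled where the adjusted p is under 0.05, with the list median in red. The median is -0.12 for the 10 genes, -0.90 for the copper and iron cell region and -0.99 for the digestive enzymes.

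Levels of different genes were compared on the authors' per-length signal. In the controls the order was cad at 0.879 ± 0.0721, nub at 0.748 ± 0.0391, GATAe at 0.702 ± 0.0508, Ptx1 at 0.451 ± 0.0391, hth at 0.311 ± 0.0175 and dve at 0.123 ± 0.00838. The lowest 4 were lab at 0.0463 ± 0.00505, pdm2 at 0.0406 ± 0.00530, tsh at 0.0386 ± 0.00526 and srp at 0.0338 ± 0.00392. Ranges of neighbours overlapped for nub and GATAe and throughout the lowest 4, and did not overlap elsewhere in this order. Measured against all loci with a read, cad stood at the 92.0 percentile of control signal and srp at the 43.0.

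The order changed in the induced libraries. nub came first at 1.32 ± 0.0526, ahead of cad at 0.922 ± 0.0154, and pdm2 went from eighth to sixth place at 0.206 ± 0.00861, above dve at 0.116 ± 0.00300. lab went from seventh to last, at 0.0281 ± 0.00189. No ranges of neighbours overlapped in that order. The percentile of pdm2 among all loci went from 45.5 to 73.3, and that of lab from 47.7 to 39.7. This signal is scaled to mapped reads, so it shares the shift seen with library totals.

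**Figure D4:**
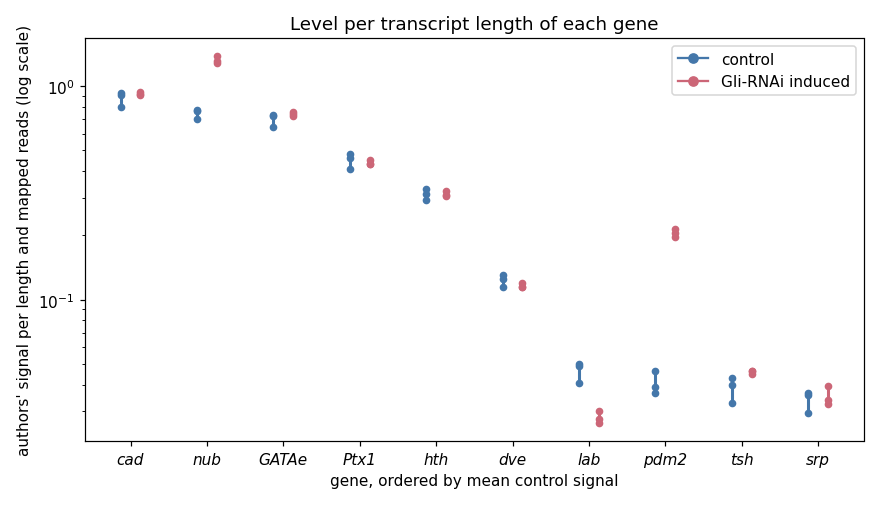
Authors' signal per length and mapped reads (vertical axis, log scale) for each gene, ordered by mean control signal, in the control (blue) and induced (red) libraries, 1 point per library with a line over the range. pdm2 moves from among the lowest 4 genes to sixth place, and nub moves above cad.

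Several of the genes make more than 1 transcript, and rows of a gene share reads, since a read in a shared exon is counted in each. A fit over all 16249 transcript rows past the filter called 4 of the 29 rows as higher and 15 as lower, against 52.6% called over all rows. The rows called higher were the 2 of nub and the 2 of pdm2. Those called lower included all 8 of hth, both of dve, the single row of lab, 2 of 4 of Ptx1 and 2 of 3 of GATAe. With library totals the same 4 were higher but only 4 were lower (both of dve, the 2603-base row of hth and that of lab), against 56.2% called over all rows. Leaving out 1 library gave 9 to 20 lower rows, the fewest without induced replicate 2. The GATAe rows had adjusted p-values of 0.044 and 0.045, and neither passed in 5 of the 6 fits that left out 1 library.

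The transcripts of nub start at separate promoters and make a long and a short Nub protein, for which different roles in gut immunity and stem cells have been described. By its 4 exons and its length of 3264 bases, 1 row is nearest to nub-RD of the Ensembl release 6 annotation (3267 bases). The other, with 6 exons and 4259 bases, is nearest to nub-RB (4497 bases), the only transcript of nub there with 6 exons. The longer row rose from 2412 ± 45.3 to 4140 ± 154 normalised counts, by 0.78 ± 0.051 on the log2 scale, and the shorter from 2706 ± 34.0 to 4186 ± 163, by 0.63 ± 0.050. Reads of the longer over the shorter row were 0.883, 0.874 and 0.918 in the controls and 0.983, 0.982 and 1.002 after induction. Every induced ratio lay above every control ratio (exact permutation test over libraries, two-sided p = 0.1, the smallest possible).

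For srp, where the ratio is of the shorter over the longer row, it was lower after induction, so the longer row made up more of the pair. That longer row starts downstream of the shorter (11819864 against 11811923, plus strand). In nub the longer row, which also gained, starts upstream of the shorter (12587871 against 12618348, plus strand). Reads of the 8-exon row of 3796 bases over the 7-exon row of 4461 bases were 1.241, 1.306 and 1.5 in the controls and 1.096, 1.151 and 1.070 after induction. The ranges do not overlap (exact p = 0.1). The rows themselves did not pass, at log2 fold changes of -0.12 and 0.15 (adjusted p = 0.39 and 0.40), and the ratios rest on 54 to 229 reads per row and library.

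Transcripts of hth are known to make forms with and without the homeodomain. The shortest hth row (2603 bases, 7 exons) relative to a 13-exon row of 4201 bases went from 0.255 ± 0.00731 to 0.236 ± 0.0138, with no overlap (exact p = 0.1). On the minus strand these rows end at the same base, 6335569, and start apart, at 6388134 and 6439973. The row with most reads (3394 bases, 6 exons), which ends well short of the far end of the gene, kept ratios of 1.188 to 1.246 in the controls and 1.225 to 1.272 after induction, which overlap. For pdm2 the ratio of its rows overlapped because of control replicate 3 (0.555, 0.579 and 0.677 against 0.664, 0.624 and 0.669). In all, 3 of 10 transcript ratios had no overlap between the conditions, and the ratios of Ptx1, GATAe, cad, dve and tsh overlapped. Such ratios were not computed for other genes, so no share over all genes stands beside this count. With 12 ratios compared, none can pass, since the exact p goes no lower than 0.1.

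**Figure D5:**
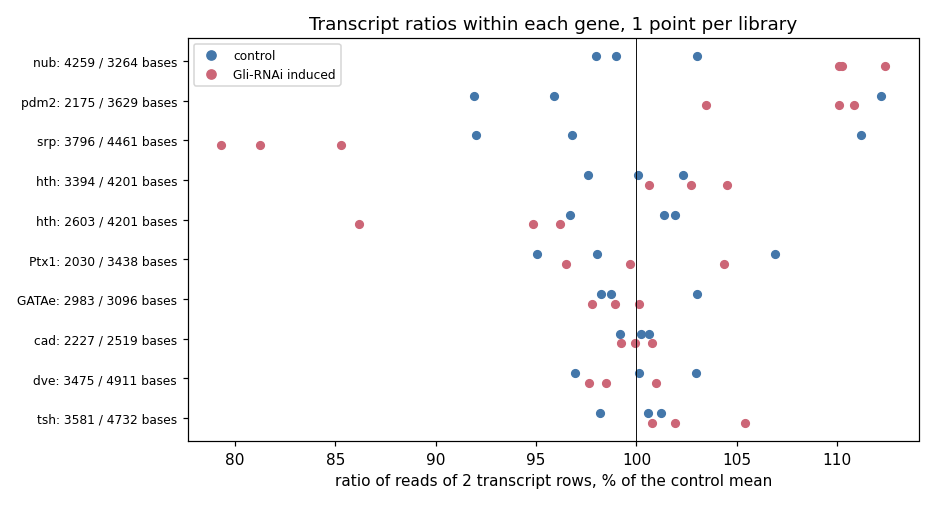
Ratio of the reads of 2 transcript rows of a gene, as a percentage of its control mean (horizontal axis), in each control (blue) and induced (red) library. Rows are named by their length in bases. The induced points lie to the right of all control points for nub, and to the left for srp and for the 2603-base row of hth.

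The genes most like each of the 6 called members, by Pearson's r of log2 CPM over the 6 libraries, were found among all tested genes. This is a description, since with 2 conditions r mostly follows the difference between them, and 190 genes had an r above 0.99 with nub, 261 with pdm2 and 51 with lab. CG17145 and sowah came first for nub, AGO2, an RNA silencing gene, and PIG-L for pdm2, and CG32686 and CG42656 for lab. For Ptx1 they were the locus shared by CG32264 and CG10858 and the zinc-finger gene sens-2, for hth CG6785 and jigr1, and for dve ZnT77C, a zinc transporter gene, and beta-Man. All had r between 0.993 and 0.9995 and passed the test in the direction of their partner.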

How the data were processed

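The authors deposited, per the file headers, read counts per transcript for each of 6 libraries, with a signal equal to a constant times reads divided by mapped reads and transcript length. They also deposited p-values, adjusted p-values and log2 fold changes per transcript, and a second table of 3049 genes with mean log2 fold changes and the smallest p-value, which lists 2 of the 10 genes (nub and pdm2). DESeq was used per the submitters' processing notes. No aligner, strand setting or genome build is named (not given in the sources used here). The column descriptions give log2 as control over treatment, but values run induced over control.

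The transcript with most reads stood for each locus. Tests were edgeR's quasi-likelihood ones (version 4.0.16, R 4.3.3, TMM, default filter on low counts, Benjamini-Hochberg over 8236 genes, threshold 0.05). The SE is the absolute log2 fold change over the square root of F. Alternatives used DESeq2 1.42.0 among others. Lists of related genes are described by counts and medians. Lists contributed at most 2 named genes past the threshold with the largest change and 1 not past it with the highest count, other genes being named after their values were seen, and the 2 most similar genes were named for each called member. The 10 genes and the lists were chosen with earlier results of these data known. Symbols were matched through RefSeq release 6 by Entrez identifier for 12825 loci. Of the names in the lists and markers 4 were not matched (gammaTry, Act57B, NHP and btl) and are not analysed here. Counting intervals and floors cover counting error only. The locus fit was also run on counts simulated from the means and dispersions of these data, which does not test the choice of scaling. Library numbers do not pair the samples.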

Additional observations from a re-analysis of the deposited data

How the results depend on the processing

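The 10 genes were refitted under 13 alternatives, of which 6 left out 1 library each. nub (0.61 to 0.83), pdm2 (2.08 to 2.32) and lab (-0.98 to -0.73) passed in all 13 with their direction. Ptx1 and dve passed in 12 and hth in 9. With library totals 3737 of all genes rose, 1 of the 10 genes fell, 2 genes of the GATA list and 3 of the Hox list rose, and GATAe (0.082), cad (0.070), srp (0.072) and hth (0.0049) turned in sign, which follows from the upward shift of all genes. srp was 0.15 with the longest transcript and 0.049 with sums over transcripts. In the fit over transcript rows its row of 3796 bases, used in the main fit, was at -0.12. Its longer rows of 4416 and 4461 bases were both at 0.15, and why the rows differ was not tested. Without 1 library tsh ran from -0.031 to 0.11 and its longer row from -0.026 to 0.12. Of the GATA list 1 rose without the filter, 1 with the replicate block and 0 to 1 without 1 library. Of the Hox list 2 rose with the DESeq2 Wald test, 3 without the filter, 2 with sums over transcripts and 1 to 2 without 1 library. Of the regulators of enterocyte differentiation 1 to 2 fell without 1 library. The replicate block, by library numbers that only number the columns (correlations of deviations between same-numbered libraries -0.07, 0.02 and -0.07), changed no call of the 10 genes and left 2168 genes rising and 2113 falling. The srp row of the main fit held 81 to 229 reads per library. Its 95% interval, from 3 libraries per condition, ran from -0.36 to 0.13 and so includes a decrease of the size seen for dve.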
